A study of Homo sapiens with 6 samples.

Results

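LRRC15 and 9 further genes that mark activated fibroblasts and contractile stromal cells were followed in U87MG cells with and without LMO2 overexpression. The 10 genes are LRRC15, POSTN, FAP, ACTA2, TAGLN, CNN1, THY1, TNC, INHBA and SPARC, out of 27259 genes with a line in at least 1 deposited table. They were found by symbol in the authors' table of the comparison and by Entrez gene ID in the tables of the libraries, and all 10 were present. They are stromal and contractile markers known to respond to TGF-beta. The choice was made with the contrast between LMO2 and control already in view, so their values are given as a description with no test. U87MG is an established human glioblastoma line, grown here in serum-containing medium. U87MG-control cells (n = 3 libraries) had received a control lentivirus and U87MG-LMO2 cells (n = 3 libraries) a lentivirus carrying LMO2, a LIM-domain adaptor protein, each for 24 h per the labels. The labels do not say whether the libraries of a group came from separate cultures, so p-values measure only the spread between these libraries, which may be technical. They name neither the promoter of the vector nor a batch.

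TGF-beta and the related activins bind pairs of serine/threonine kinase receptors, which phosphorylate SMAD2 and SMAD3, and these enter the nucleus with SMAD4 to switch on target genes. In fibroblasts this signal is known to give a contractile, matrix-secreting state called the myofibroblast, in which actin-dependent factors (SRF with the coactivators MRTFA and MRTFB) also act on contractile genes. In glioblastoma the same secreted proteins are made by tumor cells of the mesenchymal type and by vessel-associated stroma.

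Members of the set are placed by role in that state. LRRC15 is a membrane protein with leucine-rich repeats that marks TGF-beta-activated fibroblasts. FAP is a cell-surface serine protease, and THY1 is a lipid-anchored surface glycoprotein. TNC, SPARC and POSTN are secreted matricellular proteins. ACTA2 is smooth muscle actin, whereas TAGLN (transgelin) and CNN1 (calponin) bind actin filaments. INHBA encodes the subunit of activin A and is the 1 ligand among the 10.

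Promoter sequences are shown for LRRC15, for TNC and SPARC, the genes of the set with the most reads, and for ACTA2, the member that was lower in U87MG-LMO2. They are the 250 bases before the start in RefSeq (GRCh38.p14), which listed 8 starts for 7 of the 10 genes and none for FAP, TAGLN and THY1. ACTA2 had 2 starts, and the downstream one is shown. Capitals mark matches, on either strand, to TGACTCA (the AP-1 element), to CATTCC (the MCAT element of TEAD factors) or to a CArG-like element (CC, then 6 bases with at most 1 G or C among them, then GG), a looser form of the SRF-binding CArG box, in which the middle bases are all A or T.

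LRRC15, chr3:194369744-194369993, minus strand: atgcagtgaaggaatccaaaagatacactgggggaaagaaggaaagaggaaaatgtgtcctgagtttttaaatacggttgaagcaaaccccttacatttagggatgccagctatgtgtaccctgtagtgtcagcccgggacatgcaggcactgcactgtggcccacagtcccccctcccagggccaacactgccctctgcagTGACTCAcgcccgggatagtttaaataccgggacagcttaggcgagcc

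TNC, chr9:115118158-115118407, minus strand: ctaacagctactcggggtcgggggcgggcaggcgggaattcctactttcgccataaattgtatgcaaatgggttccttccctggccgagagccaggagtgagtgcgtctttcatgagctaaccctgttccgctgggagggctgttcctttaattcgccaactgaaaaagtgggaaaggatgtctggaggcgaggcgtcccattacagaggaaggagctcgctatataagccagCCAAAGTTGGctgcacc

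SPARC, chr5:151686916-151687165, minus strand: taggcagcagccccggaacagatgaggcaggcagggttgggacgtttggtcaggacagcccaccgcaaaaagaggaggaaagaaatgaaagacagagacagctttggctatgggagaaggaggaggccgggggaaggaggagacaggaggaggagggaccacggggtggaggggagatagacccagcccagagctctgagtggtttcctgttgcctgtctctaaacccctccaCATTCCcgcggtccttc

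ACTA2, chr10:88952774-88953023, minus strand: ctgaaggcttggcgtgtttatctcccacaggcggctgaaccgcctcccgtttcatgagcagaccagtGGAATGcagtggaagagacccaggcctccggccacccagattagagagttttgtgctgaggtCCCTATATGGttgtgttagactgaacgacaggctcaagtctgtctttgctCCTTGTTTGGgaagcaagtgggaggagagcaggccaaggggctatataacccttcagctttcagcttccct

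The matches were few. LRRC15 held TGACTCA at positions -48 to -42 from the start, and 4.2% of all 35116 promoter windows of this length held it. The ACTA2 window held CArG-like elements at -121 to -112 and at -71 to -62, together with a reverse CATTCC match at -183 to -178, and TNC held a CArG-like element at -17 to -8 that was found in 7.04% of all windows for any such element. SPARC held CATTCC at -17 to -12, a match found in 11.9% of all windows. Of the 8 windows of the set, 2 held TGACTCA (LRRC15 and POSTN), 2 held CATTCC and 2 held a CArG-like element. CAGAC, a short SMAD element, was in 5 of the 8 and in 38% of all windows. Of the elements searched, the window of the other ACTA2 start held only CAGAC. None of the 8 held the strict CArG box (1.16% of all windows) or the 8-letter palindromic SMAD element GTCTAGAC (0.182% of all windows). The AP-1 element and the CArG-like form were added to the search after the windows had been seen. A match is a description of letters only, and the libraries carry no measure of binding.

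Expected counts summed to 11428432 to 13537284 per U87MG-control library and to 14630627 to 17892955 per U87MG-LMO2 library, so the LMO2 libraries were all deeper. LMO2 (4005) itself was checked first, as the overexpressed gene. It had 0.607, 0.803 and 0.378 CPM (normalised read count, scaled to the TMM-adjusted library size) in U87MG-control replicates 1 to 3, and 333, 307 and 878 CPM in U87MG-LMO2 replicates 1 to 3. Some lines for U87MG-LMO2 replicate 3 were damaged in the deposited table, and none of them belonged to the 10 genes. Glioma markers were partly absent. VIM, CD44, EGFR and CHI3L1 were high, and NES averaged 7.93 and 7.47 FPKM in U87MG-control and U87MG-LMO2. SOX2 and S100B had at most 0.0467 FPKM on average in either group, OLIG2 averaged 0.393 and 0.217 FPKM, and GFAP was left out for a damaged line. Of 3 genes in a region that this line has lost, CDKN2A had no line in any table. CDKN2B had 1 count in U87MG-control replicate 2 alone. MTAP, however, had 6, 12 and 16 counts in U87MG-control and 19, 8 and 7 counts in U87MG-LMO2.

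Levels were compared between genes as FPKM, which is scaled to transcript length. In U87MG-control, TNC was the highest of the 10 at 339 ± 16.2 FPKM (SD, n = 3), followed by SPARC at 127 ± 12.6, ACTA2 at 48.6 ± 5.01, FAP at 10.6 ± 1.59 and LRRC15 at 5.56 ± 0.235 FPKM. TAGLN (1.43 ± 0.424 FPKM) and CNN1 (1.19 ± 0.26 FPKM) came next and overlapped, as did INHBA (0.28 ± 0.131 FPKM) and POSTN (0.15 ± 0.0608 FPKM), and THY1 was last with a sum of 1 read over the 6 libraries. In U87MG-LMO2, LRRC15 reached 34.1 ± 12.4 FPKM and stood in the third place, where its libraries overlapped those of ACTA2 at 27.3 ± 6.42 FPKM. By mean, the other genes kept their order relative to each other. INHBA (0.467 FPKM) and POSTN (0.463 FPKM) were nearly level, however, and POSTN was the higher of these in U87MG-LMO2 replicates 1 and 3. Averaged over the 6 libraries, the FPKM of TNC was above that of 99.5% of the 27127 genes with reads, that of LRRC15 above 86% and that of POSTN above 37.1%. The 10 genes thus spanned nearly the whole range of expression in this line, from TNC down to THY1, a common fibroblast marker that was at or near 0.

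**Figure D1:**
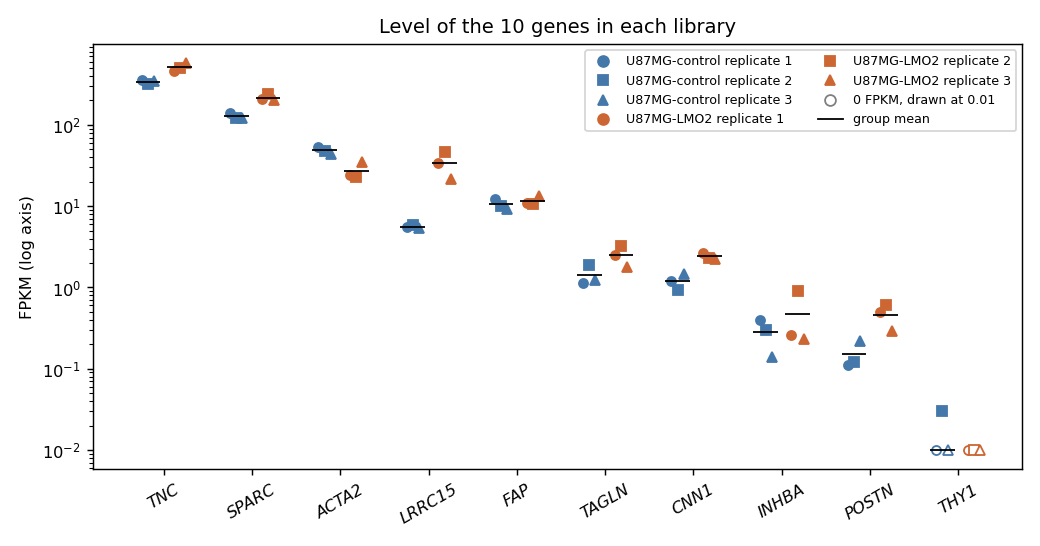
Level of each of the 10 genes in each library, as FPKM on a log axis, ordered by mean level. Blue points are U87MG-control and orange points U87MG-LMO2 (circle, square and triangle for replicates 1, 2 and 3), black lines are group means, and open points stand for 0 FPKM, drawn at 0.01; LRRC15 is at 5.32 to 5.79 FPKM in U87MG-control and at 21.88 to 46.58 FPKM in U87MG-LMO2.

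LRRC15 (131578) differed the most among the 10 genes. It had 380, 467 and 415 counts in U87MG-control replicates 1 to 3, and 3268, 4062 and 2341 counts in U87MG-LMO2 replicates 1 to 3. In CPM the controls were at 33, 34.1 and 31.4 and the U87MG-LMO2 libraries at 199, 277 and 141. The groups did not overlap, and the lowest U87MG-LMO2 library was 4.29 times and the highest 8.44 times the control mean. The controls were nearly alike (coefficient of variation 4.13%), whereas the U87MG-LMO2 libraries varied by 33.1%. The mean went from 32.8 ± 1.36 to 206 ± 68.1 CPM (SD, n = 3), a log2 fold change of 2.65 with an SE of 0.22 in the edgeR fit over all genes. Within U87MG-LMO2 the library with the most LMO2 (replicate 3) had the least LRRC15, and the part of the LMO2 level in that spread was not tested. In this bulk RNA a larger share of cells with LRRC15 and more LRRC15 RNA per cell cannot be told apart, which holds for every gene below.

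The 3 secreted matricellular genes were all higher in U87MG-LMO2, by smaller amounts and from very different levels. SPARC (6678), a collagen-binding glycoprotein, had 512, 432 and 434 CPM in the controls against 740, 869 and 805 CPM with LMO2. Its groups were clearly apart, and the log2 fold change was 0.81 (SE 0.11). TNC (3371), a hexameric glycoprotein of glioma matrix, had 2333, 2150 and 2280 CPM in the controls against 3108, 3434 and 4199 CPM with LMO2. These groups did not overlap either, U87MG-LMO2 replicate 3 held the most, and the log2 fold change was 0.67 (SE 0.12). POSTN (10631), a ligand of integrins, rested on 4, 5 and 9 counts in U87MG-control and on 26, 27 and 16 counts in U87MG-LMO2. It entered the fit only through its U87MG-LMO2 libraries, since its CPM of 0.347, 0.365 and 0.681 in U87MG-control lay below the filter on low counts, and it therefore had to differ. The fitted log2 value was 1.62 (SE 0.40), the widest error of the 8 genes in the fit, and it moved from 0.34 to 1.86 over the other tests, scalings and filters, the lowest with a pseudocount of 1 on FPKM.

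The other surface proteins, FAP and THY1, did not show the difference seen for LRRC15. FAP (2191) had 33, 26.6 and 24.4 CPM in the controls against 29, 28.6 and 39 CPM with LMO2. The groups overlapped, only U87MG-LMO2 replicate 3 was above every control, and the log2 fold change of 0.21 (SE 0.17) became 0.05 without that library and 0.48 with a correction for GC content that was added after seeing the data. THY1 (7070) had 1 count in U87MG-control replicate 2 and 0 counts in the other 5 libraries. A count of 0 allows up to 3 counts, which is 0.181 to 0.26 CPM in these libraries, so no fold can be given. This limit covers counting error only.

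The 3 contractile genes differed in direction. ACTA2 (59) had 87.3, 76.7 and 69.8 CPM in the controls against 38.4, 36.1 and 58.9 CPM with LMO2, and it was the 1 member of the 8 with a negative fold change. Every U87MG-LMO2 library was below every control, with replicate 3 nearest to them, and the log2 fold change was -0.81 (SE 0.19), or -1.06 without that library. TAGLN (6876) had 1.74, 2.34 and 1.59 CPM in U87MG-control against 3.23, 4.36 and 2.89 CPM in U87MG-LMO2. CNN1 (1264) had 1.74, 1.46 and 2.27 CPM in U87MG-control against 4.21, 3.68 and 3.68 CPM in U87MG-LMO2. For both, every U87MG-LMO2 library was above every control, on 20 to 32 counts per control library, with log2 fold changes of 0.88 (SE 0.26) for TAGLN and 1.08 (SE 0.23) for CNN1. As levels, however, ACTA2 at 27.3 FPKM in U87MG-LMO2 was still far above TAGLN at 2.51 ± 0.73 and CNN1 at 2.41 ± 0.244 FPKM. The counts of ACTA2 were not whole in 5 of the 6 libraries, so the authors' counting split reads between it and other genes, and its values carry that uncertainty. The same holds for TNC.

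INHBA (3624) was close to the limit of detection. It had 10, 9 and 4 counts in U87MG-control and 9, 29 and 9 counts in U87MG-LMO2, so 1 library alone stood above the controls. It did not pass the filter on low counts. With no such filter its log2 fold change was 0.74 (SE 0.55).

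**Figure D2:**
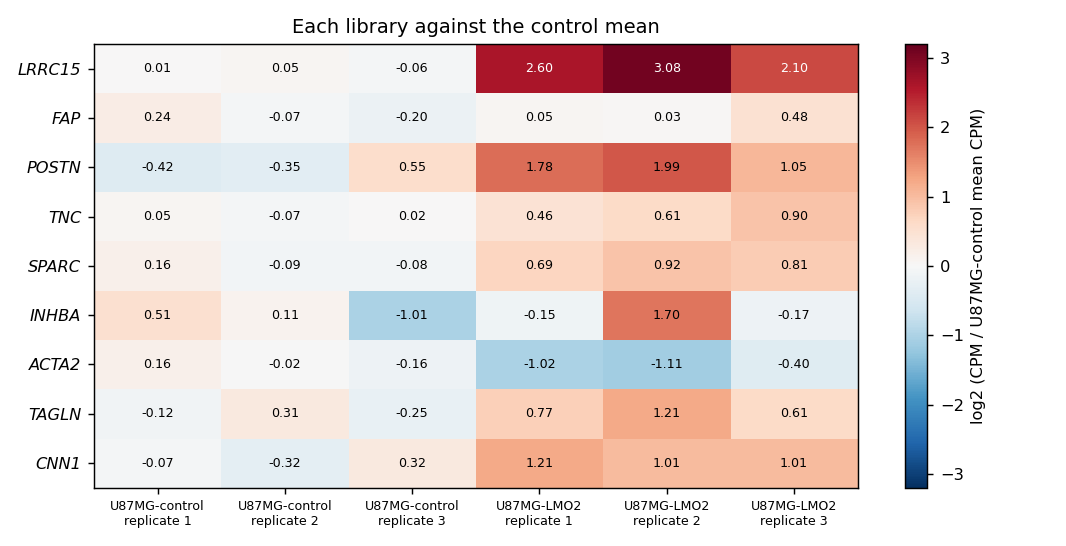
Log2 ratio of the CPM in each library to the U87MG-control mean for 9 of the 10 genes (THY1, with 1 read, is left out). Red cells are above and blue cells below the control mean; LRRC15 is the deepest red, ACTA2 is blue in all 3 U87MG-LMO2 libraries, and INHBA is high in replicate 2 alone.

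The U87MG-LMO2 libraries were ordered differently by different members, as the plot of ratios to the control mean shows. LRRC15, POSTN, INHBA, TAGLN and SPARC were highest in replicate 2, at 8.44, 3.96, 3.25, 2.31 and 1.89 times the control mean. TNC and FAP were highest in replicate 3, at 1.86 and 1.39 times, and CNN1 in replicate 1, at 2.31 times. ACTA2 was also lowest in replicate 2, at 0.463 times the control mean, against 0.493 in replicate 1 and 0.756 in replicate 3. Together the 10 genes took 2724 to 3003 CPM in the controls and 4124 to 5251 CPM with LMO2, and TNC alone made up 73.7% to 80.2% of that sum in every library.

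Of the 10 genes, 8 passed the filter on low counts and entered the fit. At an edgeR adjusted p under 0.05 over all 16092 genes tested, 5 of them were higher (LRRC15, POSTN, CNN1, SPARC and TNC) and 1 was lower (ACTA2), where 4.72% of all tested genes were higher, 2.75% were lower and 7.48% were called in either direction. The groups did not overlap with U87MG-LMO2 above for 6 and with U87MG-LMO2 below for 1, against 17.5% and 16.6% of all tested genes, or 34.1% in either direction. Since the set was chosen on this contrast, nothing is read from these counts. Over 15 alternative fits, the log2 fold change of LRRC15 ranged from 2.36 to 2.86, that of SPARC from 0.74 to 0.89, that of TNC from 0.54 to 0.77 and that of ACTA2 from -1.06 to -0.68. The count depended on every library: the 5 higher genes became 2, 1 and 1 without U87MG-control replicates 1, 2 and 3 and 3, 3 and 6 without U87MG-LMO2 replicates 1, 2 and 3. The 1 lower gene was kept without U87MG-LMO2 replicate 3 and lost in the other 5 of these fits. FAP was past the threshold in none of the 15 alternatives, and TAGLN only without U87MG-LMO2 replicate 3.

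**Figure D3:**
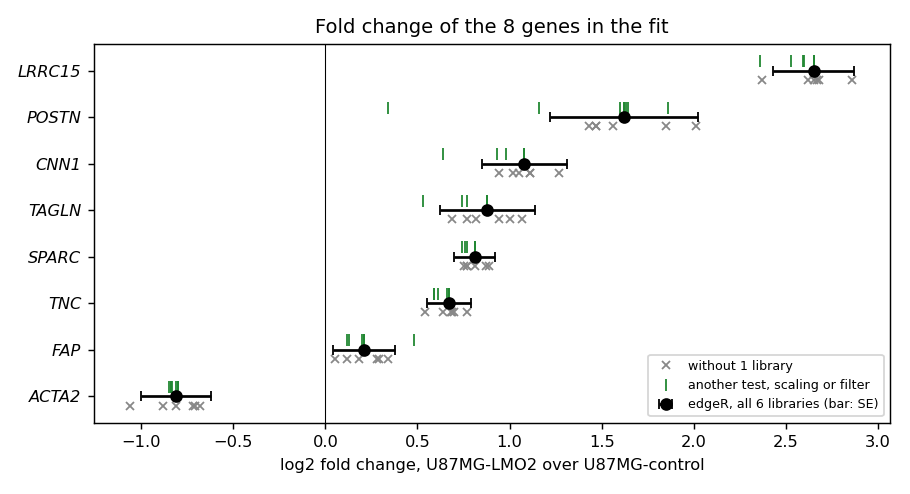
Log2 fold change of U87MG-LMO2 over U87MG-control for the 8 genes in the fit. Black points are the edgeR fit of all 6 libraries with its SE, grey crosses leave out 1 library each, and green ticks are other tests, scalings and filters; LRRC15 stays between 2.36 and 2.86 and ACTA2 between -1.06 and -0.68.

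The mean transcript length, listed per gene and library beside the counts, was longer in every U87MG-LMO2 library than in every control for 3 of the 10 genes, LRRC15, TNC and FAP. For comparison, 11055 tested genes had a length in all 6 libraries that varied by more than 1 base among them. Of these, 9.2% were longer in U87MG-LMO2 without overlap and 7.54% were shorter. SPARC and INHBA, each with 1 length in all libraries, and THY1, with a length in 1 library only, were not among the 11055. For TNC, whose transcripts differ in the number of fibronectin repeats, it was 6588, 6686 and 6619 bases in the controls and 6782, 6769 and 6688 bases with LMO2. For FAP it was 2675, 2671 and 2622 bases in the controls and 2699, 2712 and 2719 bases with LMO2, although the level of FAP overlapped between the groups. LRRC15 differed by few bases, at 5883 in each control and 5885 to 5887 with LMO2. For ACTA2 the lengths overlapped, at 1611 to 1638 bases in the controls and 1578 to 1619 bases with LMO2. The lengths rest on estimated shares of transcripts, and no test was run on them.

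The other genes of these pathways were then compared, from lists drawn up with earlier results of these data known. None of the 10 genes is in them, and the adjusted p of a single gene is from the edgeR test over all genes. Because of how the lists were drawn up, their counts and medians are a description, and nothing is read from them. Across all 16092 tested genes the median log2 fold change was -0.01, and 4.72% were called higher and 2.75% lower at an edgeR adjusted p under 0.05.

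Among 21 TGF-beta target genes, 18 were tested, 7 rose in U87MG-LMO2 and none fell at an edgeR adjusted p under 0.05, and the median log2 fold change was 0.54. Of the 18, 17 had a positive log2 fold change, and BHLHE40 was at -0.32 (edgeR adjusted p 0.396). The ones with the largest change were ELN, CCN2 and PMEPA1. ELN (2006), which encodes elastin, rose from 0.521, 1.61 and 1.21 CPM to 79.6, 63.7 and 26.4 CPM, a log2 fold change of 5.62 (SE 0.50, edgeR adjusted p 0.00225). With 6, 22 and 16 counts in the controls, ELN needed a U87MG-LMO2 library to pass the filter on low counts. Its entry into the test thus leaned on the group where it was high, though less than that of POSTN. CCN2 (1490), a matricellular growth factor modulator, went up from 25 ± 4.38 to 84.2 ± 29 CPM (SD; log2 fold change 1.75, SE 0.24, edgeR adjusted p 0.00813). PMEPA1 (56937), a membrane protein that restrains SMAD signaling, rose from 3.07 ± 0.56 to 10.2 ± 4.55 CPM, a log2 fold change of 1.72 (edgeR adjusted p 0.0207). The remaining 4 called genes were SMAD7, an inhibitory SMAD, at a log2 fold change of 1.42, IGFBP3 at 1.61, the POSTN relative TGFBI at 1.30 and the metalloprotease ADAM12 at 0.65. Their edgeR adjusted p were 0.0301, 0.0426, 0.0242 and 0.0143 in that order, and alternative fits were not tabulated for them. IGFBP3 had 15.7, 16.2 and 15.5 CPM in the controls against 49.9, 74.8 and 20.3 CPM with LMO2, so replicate 3 lay near the controls. FN1 (fibronectin), a well-known target, was at 0.99 with an edgeR adjusted p of 0.0755. Without U87MG-control replicate 1, CCN2 (adjusted p 0.0561) and PMEPA1 (0.102) lost their calls, and PMEPA1 also lost it without U87MG-control replicates 2 and 3 and U87MG-LMO2 replicate 1 (0.0792, 0.0774 and 0.0559).

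Of the 20 ligands, receptors, SMADs and inhibitors upstream, all were tested, 3 rose and 1 fell, and the median log2 fold change was 0.05. LRRC32 (2615), which holds latent TGF-beta on the cell surface, rose from 0.823 ± 0.303 to 13.6 ± 6.14 CPM (SD, n = 3; log2 fold change 4.02, SE 0.41, edgeR adjusted p 0.00303). It had 8, 16 and 8 counts in the controls and also needed U87MG-LMO2 libraries to pass the filter, so its entry leaned on the group where it was high. TGFB2 (7042), a ligand, rose from 12.5 ± 0.967 to 24.9 ± 3.86 CPM (log2 fold change 0.99, edgeR adjusted p 0.0109), and ENG (2022), a coreceptor, rose with a log2 fold change of 0.72 (edgeR adjusted p 0.0368). LTBP1 (4052), which ties latent TGF-beta to the matrix, fell by 0.73 on the log2 scale (edgeR adjusted p 0.034). The receptors TGFBR1 and TGFBR2 had log2 fold changes of -0.10 and -0.09, and SMAD2, SMAD3 and SMAD4 had values of -0.15, -0.03 and 0.02, all with adjusted p of 0.358 or more. For INHBA, the activin receptors ACVR1B and ACVR2A (0.14 and -0.28) and the activin antagonists FST and FSTL3 (0.17 and 0.50) did not pass either. TGFB2, ENG and LTBP1 each lost their call without any 1 of the 3 U87MG-control libraries and without U87MG-LMO2 replicate 1, at adjusted p of up to 0.069, 0.144 and 0.117.

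Of 25 contractile genes outside the set, 21 were tested, 3 rose and 1 fell, and the median log2 fold change was 0.24. MYL9 (10398), the regulatory light chain of smooth muscle and nonmuscle myosin, rose from 1.3, 0.876 and 1.29 CPM to 6.47, 5.86 and 11.1 CPM (log2 fold change 2.76, SE 0.32, edgeR adjusted p 0.00434). The focal adhesion proteins TGFB1I1 (7041) and PDLIM7 (9260) rose by 0.55 and 0.50 on the log2 scale (edgeR adjusted p 0.0153 and 0.0285). CSRP2 (1466), a LIM protein of smooth muscle, fell from 7.55 ± 0.965 to 3.36 ± 0.68 CPM (log2 fold change -1.17, edgeR adjusted p 0.0174). SRF, MRTFA and MRTFB themselves had values of 0.24, 0.28 and -0.02, with edgeR adjusted p of 0.177 or more, and the smooth muscle factor MYOCD had no line in any table. TGFB1I1 and CSRP2 lost their calls without U87MG-LMO2 replicate 1 or any 1 of the U87MG-control libraries (adjusted p up to 0.0902 and 0.079), and TGFB1I1 also after a correction for GC content, at 0.34 (0.0508). PDLIM7 lost its call in 5 of the 6 fits without 1 library (up to 0.109 and kept only without U87MG-LMO2 replicate 3), and after the same correction it was at 0.24 (0.224).

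Among stromal and fibroblast genes, 23 of 31 were tested, 6 were higher and 1 was lower, and the median log2 fold change was 0.49. COL1A1 (1277), a chain of type I collagen, rose from 672, 751 and 766 CPM to 1442, 1459 and 1525 CPM (log2 fold change 1.02, SE 0.10, edgeR adjusted p 0.00238). COL5A1 (1289) rose from 166 ± 16.8 to 350 ± 50.6 CPM (log2 fold change 1.08, edgeR adjusted p 0.00489), and PDGFRB (5159), the receptor that marks pericytes and fibroblasts, rose from 18.6 ± 4.08 to 35.3 ± 9.12 CPM (log2 fold change 0.93, edgeR adjusted p 0.0379). NT5E (4907), the ecto-nucleotidase CD73, fell from 985 ± 113 to 482 ± 20.9 CPM (log2 fold change -1.03, edgeR adjusted p 0.00344). PDGFRB lost its call without any 1 of the U87MG-control libraries or U87MG-LMO2 replicate 1 (adjusted p up to 0.147), and with limma on log2(FPKM + 0.1) and log2(FPKM + 1) (0.0569 and 0.0604). Some defining fibroblast genes were at low levels. DCN averaged 0.387 FPKM in U87MG-control, against 0.51, 0.55 and 2.08 FPKM in U87MG-LMO2. LUM averaged 0.887 FPKM in U87MG-control, against 1.75, 1.48 and 5.55 FPKM in U87MG-LMO2, each above every control. Replicate 3 of U87MG-LMO2 stood above the other libraries for both. PDGFRA averaged 0.555 CPM in the controls and 0.789 CPM with LMO2. LUM, DCN and COL3A1 had log2 fold changes of 1.81, 1.54 and 1.15 (edgeR adjusted p 0.0799, 0.253 and 0.0678). Of 7 fibroblast markers, 6 were tested, all 6 with a positive log2 fold change (median 1.08). The summed level of the 7 fibroblast markers was 1680 to 1791 CPM in the controls and 2885 to 3395 CPM with LMO2, mainly the type I collagen genes COL1A1 and COL1A2, which were the 2 called higher among the 6 tested. Its part in the values of the set was not tested. The endothelial markers summed to 11.3 to 12.3 CPM and 10.7 to 12 CPM, and the 8 markers of smooth muscle and pericytes to 427 to 431 CPM and 395 to 527 CPM.

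**Figure D4:**
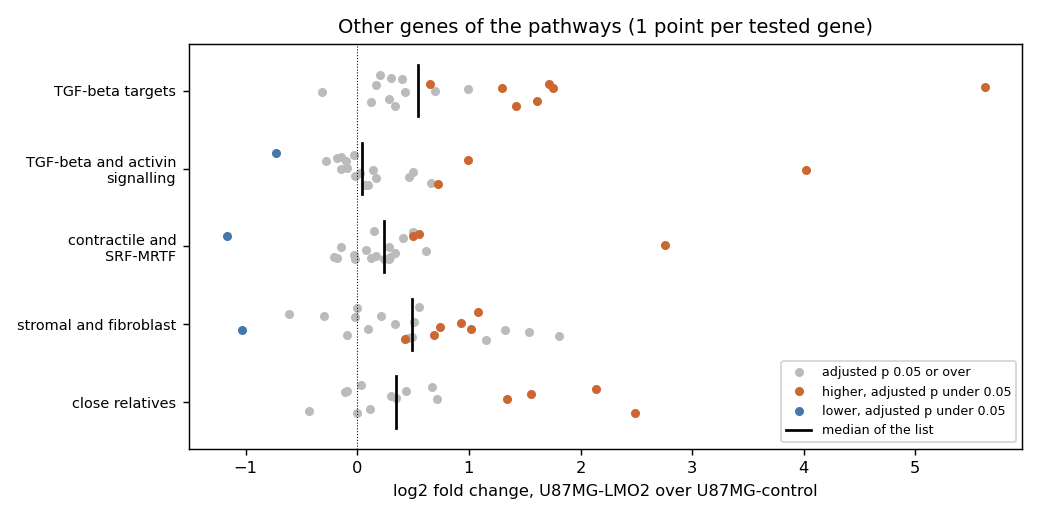
Log2 fold change of U87MG-LMO2 over U87MG-control for the tested genes of 5 lists that exclude the set, with 1 point per gene and a black line at each median. Orange and blue points passed an edgeR adjusted p under 0.05; the medians are 0.54, 0.05, 0.24, 0.49 and 0.35 from top to bottom, and ELN and LRRC32 are the points farthest to the right.

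Close relatives of the members were set beside them, since a family can share reads or function. Of 25 relatives, 15 were tested, 4 were higher and none was lower, with a median of 0.35. None of the other tested actins was lower. ACTC1 (70), cardiac actin, rose from 0.488, 0.513 and 0.843 CPM to 4.48, 2.95 and 3.27 CPM (log2 fold change 2.49, SE 0.31, edgeR adjusted p 0.005), while ACTG2, ACTB and ACTG1 had log2 fold changes of 0.67, 0.44 and 0.35 (edgeR adjusted p 0.117, 0.105 and 0.159). The actins are close in sequence, so values of the low ones beside ACTB are uncertain. Of the SPARC family, SPOCK1 (6695) rose from 31.9, 32.5 and 29.5 CPM to 76.8, 81.3 and 80.1 CPM (log2 fold change 1.34, SE 0.10, edgeR adjusted p 0.000718), and SMOC1 (64093) and SPOCK3 (50859) rose by 1.56 and 2.14 on the log2 scale (edgeR adjusted p 0.0136 and 0.00654). ACTC1, with 6, 7 and 11 counts in the controls, and SPOCK3, with 5, 11 and 10, also needed U87MG-LMO2 libraries to pass the filter. Their entry thus leaned on the group where they were high. SMOC1 lost its call without U87MG-control replicates 1 or 3 or U87MG-LMO2 replicate 1 (adjusted p 0.0543, 0.0591 and 0.0612). DPP4, the protease nearest to FAP, was at -0.43 (edgeR adjusted p 0.282), and TAGLN2, CNN2 and CNN3, the forms of transgelin and calponin found outside smooth muscle, were at 0.30, 0.11 and -0.09 (edgeR adjusted p 0.132, 0.506 and 0.631). These forms were far more abundant than the members: TAGLN2 had 266 FPKM, CNN2 110 FPKM and CNN3 49.8 FPKM on average in U87MG-LMO2. TAGLN3, a further transgelin, did not pass the filter on low counts and so was not tested. It had 19, 20 and 7 counts in the controls against 1, 1 and 2 counts with LMO2, and was thus lower without overlap.

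The genes whose pattern over the 6 libraries was most like that of LRRC15 were sought among 15219 tested genes with a mean of at least 1 CPM. Likeness was the mean absolute difference between log2 CPM profiles after each was centered on its own mean. An unnamed gene (Entrez 105378278) was nearest at 0.20, followed by ANXA8 at 0.27, STC2 at 0.28, CRISPLD2 at 0.30 and PCBP3 at 0.31, where the median gene differed by 1.31. The nearest gene had only 3 counts in each control library, which is the limit that a count of 0 allows, so its profile and its place are uncertain. CRISPLD2, at 0.422, 0.581 and 0.372 CPM in the controls, entered the fit only through U87MG-LMO2, as did the nearest gene. Their likeness to LRRC15 was thus partly forced. ANXA8, at 0.384, 0.68 and 0.752 CPM in the controls, also needed U87MG-LMO2 libraries to enter. STC2, a secreted glycoprotein hormone, shared the order of the U87MG-LMO2 libraries, at 387, 565 and 250 CPM in replicates 1 to 3. None of the other tested members was among the nearest. Of them, POSTN had the smallest difference at 0.59, CNN1 followed with 0.77, and ACTA2 was farthest with 1.71. The mean of POSTN over the 6 libraries was under 1 CPM, so it was not among the 15219 genes searched. POSTN also entered the fit only through U87MG-LMO2, so its likeness to LRRC15 was partly forced. ANXA8 has near-identical copies in the genome, so its value is uncertain.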

How the data were processed

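RNA of U87MG cells infected with control or LMO2 lentivirus was sequenced by a service provider (6 libraries, 3 per group). The authors deposited, for each library, an expected count, an FPKM value and a transcript length per gene. The submitters' processing notes name Bowtie2, BWA and GRCh38.p12. The length column is the mean length in bases over a gene's expressed transcripts. A comparison table of the authors also holds group mean FPKM, log2 ratio, direction and probability; only its means were used, to find damaged lines, and its column named CG1 was taken as the LMO2 group from the name of the table. For 131 of 27259 genes the LMO2 mean did not match the library tables within 0.0051 FPKM, and they were left out, with 27128 kept.

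Expected counts were rounded and tested with edgeR 4.0.16 in R 4.3.3 (filterByExpr, TMM, quasi-likelihood test, two-sided, Benjamini-Hochberg over 16092 genes, threshold 0.05). Symbols were matched to RefSeq for 24432 genes (89.6%). DESeq2 1.42.0, limma 3.58.1 on log2(FPKM + 1) or log2(FPKM + 0.1), upper-quartile scaling, DESeq2 size factors, other filters on low counts, a replicate block and each library left out were alternatives. A GC-content correction was added after seeing the data. The edgeR step was tested on simulated data.

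The 10 genes and the pathway lists were chosen with earlier results of these data known. Named were the 10 genes, up to 3 called genes per list and direction with the largest change, close relatives and the 5 genes most like LRRC15; other list genes were named after their values were seen. Library totals were 11428432 to 17892955 counts, and a count of 0 allows up to 3 counts (counting error only).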

Additional observations from a re-analysis of the deposited data

How the results depend on the processing

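No log2 fold change changed sign among the tested members of the 10 genes and the 18 pathway genes named by rule, the genes for which the alternatives were tabulated. Over all genes, 760 were higher and 443 lower in U87MG-LMO2. The higher genes numbered 505 with the GC-content correction and 387 with the replicate block, and the lower genes 684 with DESeq2 and 189 with the replicate block. Leaving out 1 library gave 102 to 1307 higher and 42 to 1102 lower genes, the lowest of both without U87MG-control replicate 3 and the highest of both without U87MG-LMO2 replicate 3. Of the 10 genes, 1 to 6 were higher and 0 to 1 lower when 1 library was left out. Among the other pathway genes, where 23 were called higher and 3 lower, leaving out 1 library gave 9 to 37 higher and 1 to 6 lower. Of the 18 pathway genes named by rule, 8 kept their call in every alternative that tested them and 10 lost it in at least 1; the cause was not tested. ELN, LRRC32, ACTC1 and SPOCK3, among those 8, were not tested with at least 10 counts required in every library.

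No shared shift was seen between libraries of the same replicate number: deviations from the group means correlated at -0.12, 0 and -0.04 for replicates 1, 2 and 3. This cannot tell whether such libraries were prepared together, which the labels do not say. With the replicate block, 3 of the 10 genes were higher and 0 lower, and 20 other pathway genes were higher and 2 lower. ENG, LTBP1 and PDLIM7 were then at edgeR adjusted p of 0.0569, 0.0739 and 0.058.

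Depth limits THY1, INHBA and POSTN, which had at most 29 counts in any library.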

Other observations

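Of the 13 tested markers of vessel and blood cells, 2 passed the edgeR test over all genes. MCAM, an adhesion molecule of pericytes and melanoma, rose from an average of 73.1 to 102 CPM (log2 fold change 0.48, adjusted p 0.0231), and CSF1R, the receptor for the macrophage growth factor, rose from 7.01 to 12.3 CPM (log2 fold change 0.81, adjusted p 0.0325). Levels differed widely within these lists. DES averaged 0.0831 and 0.0837 CPM in U87MG-control and U87MG-LMO2, the endothelial cadherin CDH5 averaged 0.0243 and 0.0431 CPM, and the leukocyte gene PTPRC averaged 0.487 and 0.557 CPM. Others were present in both groups: CSPG4 averaged 247 and 251 CPM, ABCC9 101 and 93 CPM, MYH11 5.06 and 5.52 CPM, PECAM1 5.04 and 4.41 CPM and KDR 4.55 and 4.86 CPM. The summed immune markers were at 400 to 533 CPM in the controls and 307 to 585 CPM with LMO2, mainly from CD68, which averaged 437 and 400 CPM, and the epithelial markers were at 2.24 to 2.82 CPM and 2.77 to 3.19 CPM. All 6 libraries are of the cultured U87MG line, and a link between these markers and the values of the 10 genes was not tested.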
